A study of Homo sapiens with 6 samples.

Results

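The G1 and S cyclins and their kinases were taken as 10 genes: the D cyclins CCND1, CCND2 and CCND3, the E cyclins CCNE1 and CCNE2, the A cyclin CCNA2, the kinases CDK4, CDK6 and CDK2, and the phosphatase CDC25A. Each was represented by the row of the array whose only gene symbol was that of the gene, and where a gene has several rows the brightest over the 6 arrays is used. Each of the 10 genes had 1 such row, so all 10 were measured, among 18417 genes in all. They were listed by name and not by a cut-off on their values, but with earlier results of these data known.

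RNA came from YCC3, an established human gastric cancer cell line, grown in serum-containing medium in multi-well plates. Cells were transfected with siRNA against CTNNB1 (3 arrays) or with non-targeting control siRNA (3 arrays), and total RNA was taken 48 h later. An siRNA guides the cell's own machinery to cut an mRNA of matching sequence, and CTNNB1 encodes beta-catenin, which carries Wnt signals to the nucleus as a transcriptional co-activator. Every sample is the same cell line and every sample was transfected. A single siRNA and a pool are not told apart in the labels, and nothing there ties the biological replicates to separate cultures, so the p-values cover only the spread among the 6 samples, which may be technical.

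Cyclins are regulatory subunits that switch on cyclin-dependent kinases at set points of the cell cycle. In G1, D cyclins with CDK4 or CDK6 begin to phosphorylate the retinoblastoma protein, which frees E2F transcription factors. E2F then raises the transcription of E and A cyclins and of CDC25A, the phosphatase that removes inhibitory phosphates from CDK2, and cyclin E with CDK2 drives entry into S phase. CCND1 is a textbook target of beta-catenin with TCF factors, and MYC, another such target, is known to raise the transcription of CDK4 and of CDC25A. The comparison asks how the transcripts of this machinery differ between cells given siRNA against CTNNB1 and cells given control siRNA.

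The deposited values are RMA signals on the log2 scale, so 1 unit is a doubling of array signal, and array medians over the genes tested lay between 6.53 and 6.57. CTNNB1 measured 10.94, 11.06 and 11.20 with CTNNB1 siRNA, against 11.80, 11.81 and 11.90 with control siRNA, which is a change of -0.77 ± 0.10 log2 units (SE; limma, adjusted p = 0.00267). Its signal was 0.586-fold of control, so the array signal was lowered only in part. Genes are called risen or fallen where limma's p, adjusted over all 18417 genes by Benjamini-Hochberg, was under 0.05. By this rule 382 genes rose and 488 fell, so 43.9% of calls were rises, against 56.3% under cyclic loess scaling. The number of calls dropped to 288 without control siRNA replicate 1 and to 372 without control siRNA replicate 3. It was 283 without CTNNB1 siRNA replicate 1, and 421 when replicate 2 of that group was left out. All 7 epithelial markers, EPCAM, CDH1, KRT8, KRT18, KRT19, CLDN3 and CLDN4, lay above the array median on every array. The 4 measured leukocyte markers and 6 of 7 fibroblast and endothelial markers lay below it on every array, COL1A1 being the exception. All 5 measured genes of a short interferon-response list rose, by 1.53 to 4.28 log2 units, and the part of that response in the results that follow was not tested.

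Among the 10 genes, CDK6 fell and CCNE2 rose, and 8 did not pass the threshold. CDK6 encodes the G1 kinase that pairs with D cyclins, and CCNE2 encodes cyclin E2. That is 2 of 10 called, beside 4.72% of all genes tested in either direction, 2.65% for falls and 2.07% for rises. An unadjusted p under 0.05 was found for 3 of the 10, CDC25A being the third, beside 20.3% of all genes. In a per-gene fit without limma's moderation of variances neither CDK6 (adjusted p = 0.131) nor CCNE2 (adjusted p = 0.126) passed. The groups did not overlap for 5 of the 10 genes, with CTNNB1 siRNA lower for CDK6, CDK4 and CDC25A and higher for CCNE2 and CDK2. Over all genes 26% had groups that did not overlap, 15.2% with CTNNB1 siRNA lower and 10.8% with it higher. The median log2 change of the 10 genes was -0.04, beside 0.0056 for all genes, and 7 of the 10 changes were negative. In RNA from a whole culture, a different share of cells in a cycle phase and a different amount of RNA per cell cannot be told apart.

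**Figure D1:**
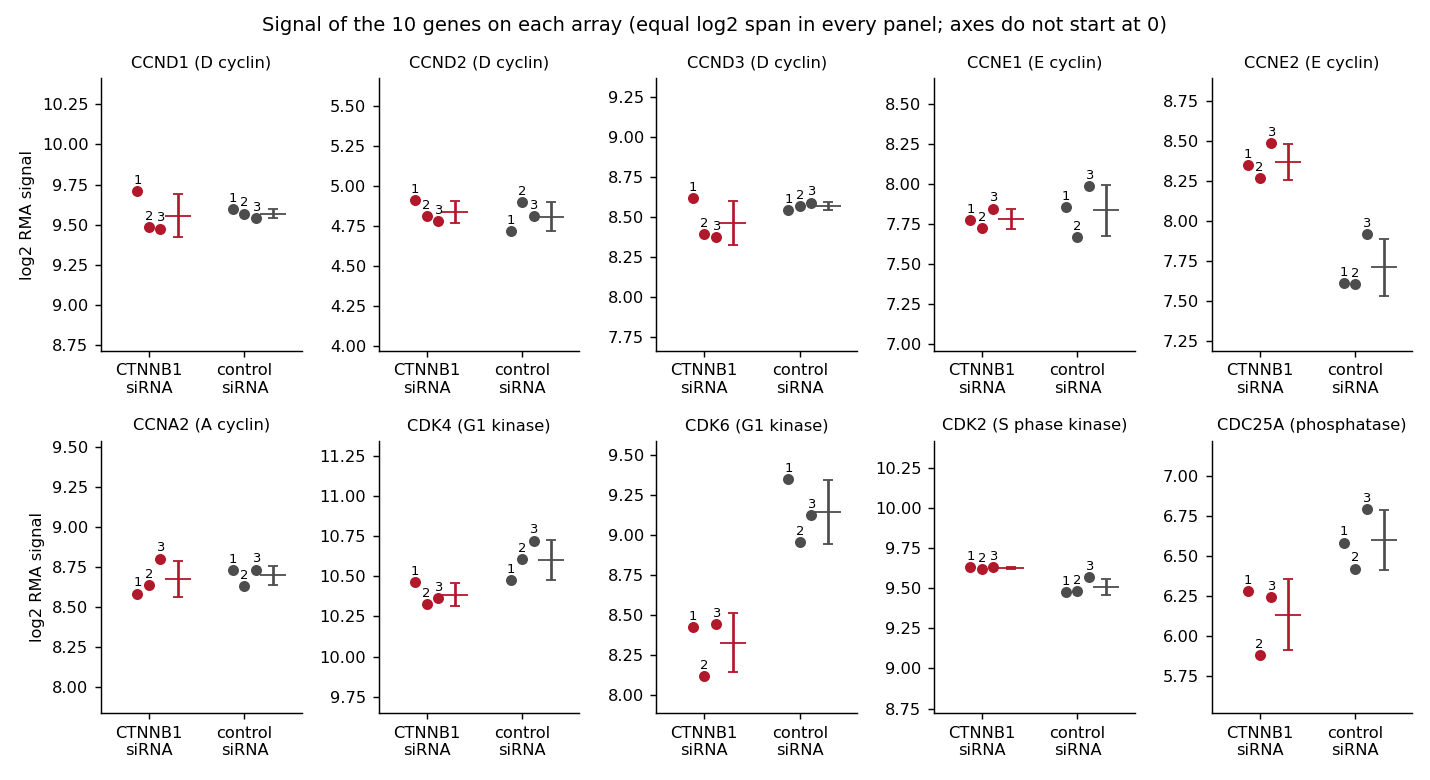
Log2 RMA signal (vertical axes) of each of the 10 genes on each array, with CTNNB1 siRNA in red on the left and control siRNA in grey on the right of each panel; numbers are replicate numbers and the bar beside each group is its mean ± SD (n = 3). CDK6 and CCNE2 show the widest gaps between groups, and CCND1, CCND2, CCND3, CCNE1 and CCNA2 show overlapping groups.

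The D cyclins, which sense growth signals and carry CDK4 and CDK6 into G1, did not pass the threshold. CCND1, cyclin D1, measured 9.71, 9.48 and 9.48 with CTNNB1 siRNA, against 9.60, 9.57 and 9.54 with control siRNA. The CTNNB1 siRNA values lay on both sides of the control values, and the highest and the lowest of all 6 came from the CTNNB1 siRNA arrays. Its log2 change was -0.013 ± 0.10 (SE; limma, adjusted p = 0.963), with a 95% confidence interval of -0.24 to 0.21, or 0.848-fold to 1.16-fold, and was 0.064 under cyclic loess scaling.

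CCND3, cyclin D3, measured 8.62, 8.40 and 8.38 with CTNNB1 siRNA, against 8.55, 8.57 and 8.59 with control siRNA. As for CCND1, CTNNB1 siRNA replicate 1 was the highest of the 6 arrays and the other CTNNB1 siRNA arrays were the lowest. The log2 change of CCND3 was -0.10 ± 0.10 (SE; limma, adjusted p = 0.622), with a 95% confidence interval of -0.33 to 0.12. CCND1 and CCND3 were each other's nearest gene among the 10: after each gene was centred on its own mean, their root mean square difference over the 6 arrays was 0.0546 log2 units, and CCND3 ranked 198th among all genes by nearness to CCND1.

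CCND2, cyclin D2, was the dimmest of the set, at 4.91, 4.81 and 4.78 with CTNNB1 siRNA, against 4.71, 4.90 and 4.81 with control siRNA. All 6 values were under the array medians, and a signal above background was not shown. Its log2 change was 0.03 ± 0.10 (SE; limma, adjusted p = 0.913), and -0.019 under cyclic loess.

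The E cyclins activate CDK2 at the entry into S phase, and of the pair CCNE2 passed the threshold and CCNE1 did not. CCNE2, cyclin E2, measured 8.35, 8.27 and 8.49 with CTNNB1 siRNA, against 7.61, 7.60 and 7.92 with control siRNA. The lowest CTNNB1 siRNA array lay 0.35 log2 units above the highest control array. The rise was 0.66 ± 0.12 log2 units (SE), or 1.58-fold (95% confidence interval 1.32 to 1.89; limma, adjusted p = 0.0125). It was the 198th largest rise of 18417 genes. Leaving out control siRNA replicate 1 gave an adjusted p of 0.0680 and a log2 change of 0.61. Leaving out CTNNB1 siRNA replicate 1 gave 0.0601 and 0.67. The call held with any of the other 4 arrays left out.

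CCNE1, cyclin E1, whose gene is amplified in some gastric cancers, measured 7.77, 7.72 and 7.85 with CTNNB1 siRNA, against 7.85, 7.67 and 7.98 with control siRNA. The groups overlapped, the highest and the lowest values both being control arrays. Its log2 change was -0.05 ± 0.11 (SE; limma, adjusted p = 0.825), with a 95% confidence interval of -0.29 to 0.19. The difference between the signals of CCNE2 and CCNE1 on the same array was 0.71 log2 units larger with CTNNB1 siRNA, and was larger on each of those 3 arrays than on any control array. The exact permutation test over the 6 arrays, two-sided, gave p = 0.1, which is the smallest that 3 arrays against 3 allow. It could not reach 0.05 whatever the values, so it cannot decide whether the E cyclins changed unequally.

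The 5 genes nearest to CCNE2 in their centred values over the 6 arrays were PAG1, TAAR3P, SP140L, PTAFR and SEMA6A. PAG1, a membrane adaptor for SRC family kinase signalling, differed from it by 0.0316 log2 units (root mean square) and TAAR3P, annotated as a receptor pseudogene, by 0.0322. SP140L, a relative of the nuclear body protein SP140, differed by 0.0571, PTAFR, the receptor for platelet-activating factor, by 0.0614 and SEMA6A, a transmembrane semaphorin, by 0.0675. All 5 rose, by 0.68 to 0.76 log2 units, which the choice itself fixes, since the centred values hold the difference between groups. The nearest of the 10 genes was CDK2, at 0.285 log2 units, which ranked 2174th among all genes.

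CCNA2, cyclin A2, which takes over CDK2 during S phase and is a common marker of proliferating cells, measured 8.59, 8.64 and 8.80 with CTNNB1 siRNA, against 8.73, 8.63 and 8.74 with control siRNA. The groups overlapped, and the CTNNB1 siRNA arrays held both the highest and the lowest value. Its log2 change was -0.02 ± 0.10 (SE; limma, adjusted p = 0.926) with a 95% confidence interval of -0.25 to 0.20, and 0.046 under cyclic loess.

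For both G1 kinases every CTNNB1 siRNA array was lower than every control array, and only CDK6 passed the threshold. CDK6 measured 8.42, 8.12 and 8.44 with CTNNB1 siRNA, against 9.35, 8.96 and 9.12 with control siRNA. The highest CTNNB1 siRNA array lay 0.51 log2 units below the lowest control array. The log2 change was -0.82 ± 0.13 (SE; limma, adjusted p = 0.00791), so the signal fell by 43.2%, to 0.568-fold of control with a 95% confidence interval of 0.464 to 0.696. It was the 22nd largest fall of 18417 genes, beside a log2 change of -0.77 for CTNNB1, the targeted gene. The call held with any 1 of the 6 arrays left out, with log2 changes from -0.91 to -0.71 and adjusted p of up to 0.0414.

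CDK4, the other kinase of D cyclins, measured 10.47, 10.33 and 10.37 with CTNNB1 siRNA, against 10.48, 10.61 and 10.72 with control siRNA. The groups did not overlap, but only 0.0123 log2 units lay between the nearest arrays. The log2 change of -0.22 ± 0.10 (SE) did not pass the threshold (limma, adjusted p = 0.271), and its 95% confidence interval ran from -0.44 to 0.01. The signal difference between CDK6 and CDK4 on the same array was lower by 0.60 log2 units with CTNNB1 siRNA, a comparison chosen after the values were seen. The groups did not overlap for it, and the exact permutation test, two-sided, gave p = 0.1, again the smallest possible. Adjusted over both such within-array comparisons, the permutation p was 0.1 for each. The test could not reach 0.05, so it cannot decide whether CDK6 and CDK4 changed unequally.

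The 5 genes nearest to CDK6 by the same measure, also named after the values were seen, were UTP20, PPIP5K2, NOC3L, ACACA and MBNL3, with differences of 0.0575 to 0.0857 log2 units. UTP20 and NOC3L are ribosome assembly factors, PPIP5K2 is an inositol pyrophosphate kinase, ACACA is acetyl-CoA carboxylase of fatty acid synthesis and MBNL3 is an RNA-binding splicing regulator. All 5 fell, with log2 changes of -0.83 to -0.73, again a direction that the choice fixes. Among the 10 genes the nearest to CDK6 was CDC25A, at 0.218 log2 units, which ranked 354th among all genes.

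CDK2, the kinase of cyclins E and A, lay slightly higher with CTNNB1 siRNA. It measured 9.64, 9.62 and 9.63 with CTNNB1 siRNA, against 9.48, 9.48 and 9.57 with control siRNA. The groups did not overlap and the CTNNB1 siRNA arrays were close to each other (SD 0.0073, n = 3), but the log2 change of 0.12 ± 0.09 (SE) did not pass the threshold (limma, adjusted p = 0.511). Its 95% confidence interval was -0.08 to 0.32.

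CDC25A measured 6.28, 5.88 and 6.24 with CTNNB1 siRNA, against 6.58, 6.42 and 6.79 with control siRNA. Every CTNNB1 siRNA array was below every control array, with a gap of 0.14 log2 units, and 4 of the 6 values were under the array medians. The log2 change of -0.47 ± 0.14 (SE) had a 95% confidence interval of -0.77 to -0.16 and an adjusted p of 0.0840 in limma, so the gene did not pass the threshold. It did not pass with any 1 array left out, where the adjusted p lay between 0.0777 and 0.252. With the dimmest 25% of genes removed its adjusted p was 0.0445.

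**Figure D2:**
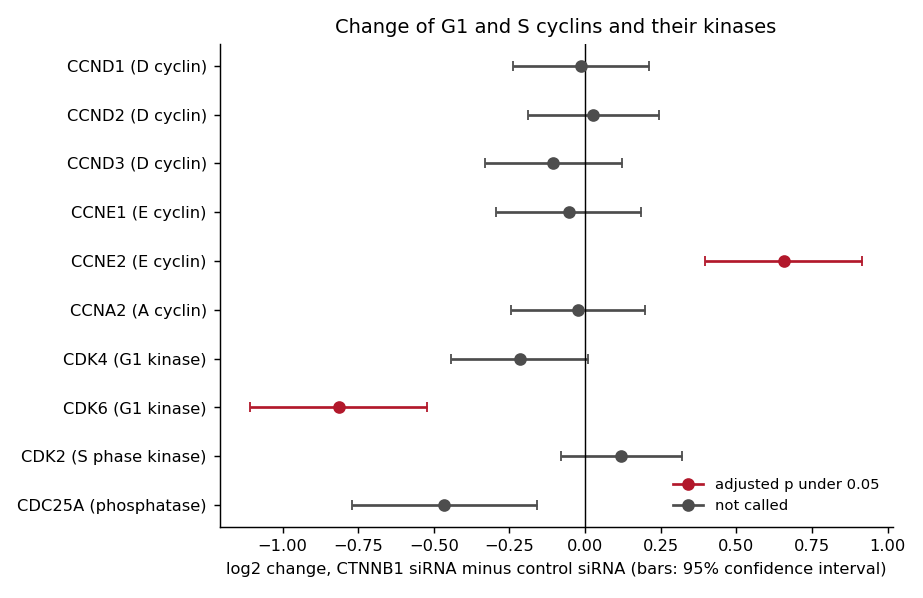
Log2 change of each of the 10 genes (horizontal axis, CTNNB1 siRNA minus control siRNA) with its 95% confidence interval from limma; red marks an adjusted p under 0.05. The intervals of CDK6, CCNE2 and CDC25A exclude 0, and that of CDK4 reaches 0.01.

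CDK6, CDK4 and CDC25A were the genes whose CTNNB1 siRNA arrays all lay below the control arrays, and the sequences just upstream of their starts are shown for that reason. They are the 250 bases before each annotated start, from RefSeq on GRCh38.p14, all on the minus strand and printed 5′ to 3′ along the gene. CDK6 has a pair of listed starts, with windows at chr7:92836574-92836823 and chr7:92833960-92834209. The CDK4 window is chr12:57752311-57752560 and the CDC25A window is chr3:48188418-48188667. Capitals mark the letters of the motifs searched.
CDK6 first window: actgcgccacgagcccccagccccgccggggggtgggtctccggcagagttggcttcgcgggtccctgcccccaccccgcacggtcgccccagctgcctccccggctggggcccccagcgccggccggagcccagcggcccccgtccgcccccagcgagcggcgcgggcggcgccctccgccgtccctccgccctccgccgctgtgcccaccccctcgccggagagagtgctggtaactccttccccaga
CDK6 second window: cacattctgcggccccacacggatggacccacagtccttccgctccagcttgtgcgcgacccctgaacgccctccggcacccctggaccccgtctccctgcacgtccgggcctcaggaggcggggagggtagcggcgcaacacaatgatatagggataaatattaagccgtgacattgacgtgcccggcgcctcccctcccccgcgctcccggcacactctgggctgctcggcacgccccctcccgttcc
CDK4: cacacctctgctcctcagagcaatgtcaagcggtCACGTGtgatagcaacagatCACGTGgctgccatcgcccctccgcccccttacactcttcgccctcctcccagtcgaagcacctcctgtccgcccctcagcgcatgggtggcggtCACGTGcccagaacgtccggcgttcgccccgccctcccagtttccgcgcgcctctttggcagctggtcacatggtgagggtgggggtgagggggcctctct
CDC25A: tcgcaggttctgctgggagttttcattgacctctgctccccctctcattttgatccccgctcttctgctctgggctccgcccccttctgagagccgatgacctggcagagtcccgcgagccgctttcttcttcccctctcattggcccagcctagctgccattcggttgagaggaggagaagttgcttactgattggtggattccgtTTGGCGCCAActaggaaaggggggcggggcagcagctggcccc

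Motifs were searched on both strands in the 9 windows listed for 6 of the 10 genes, CCND3, CCNE1, CCNA2, CDK4, CDK6 and CDC25A. The E-box CACGTG, the element that MYC with MAX binds, occurred 3 times before CDK4, its first base lying 216, 196 and 101 bases before the start, and in none of the other 8 windows. It was present in 6.34% of all 35116 windows of this length. The E2F letters searched, TTGGCGC and TTCCCGC, matched before CDC25A, where TTGGCGC overlaps its own reverse complement at 43 and 40 bases before the start, and 7.81% of all windows held a match. The TCF letters CTTTGAT and CTTTGAA, held by 5.94% of all windows, were not found in these 9. CCND1, CCND2, CCNE2 and CDK2 had no window to search. The CHR letters TTTGAA, the only CHR form searched, were not found in the 9 windows either. CTTTGAA contains these letters, and 13.3% of all windows held them. A match or its absence describes these letters in these windows and says nothing of binding.

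Replicates of a group were also compared over the 10 genes. On CTNNB1 siRNA replicate 2 none of the 10 genes lay above its own group mean, and the median deviation was -0.06 log2 units, beside -0.0033 over all genes of that array. On CTNNB1 siRNA replicates 1 and 3 there were 7 and 6 of the 10 above it. On control siRNA replicates 1, 2 and 3 there were 4, 3 and 8. CDC25A and CDK6 were furthest below their group means on CTNNB1 siRNA replicate 2, by deviations of -0.25 and -0.21. Without that array the log2 change of CDK6 was -0.71 and that of CDC25A -0.34, and CDK6 kept its call (limma, adjusted p = 0.0274).

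The regulators around the cyclins were described through 7 lists holding 80 genes, of which 77 were measured. In all 3 rose, 3 fell and 71 did not pass the threshold, beside 4.72% of all genes called. The median log2 change over these genes was -0.08. Without control siRNA replicate 1 or replicate 3 there were 3 calls, and without CTNNB1 siRNA replicate 1 there was 1.

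CDK inhibitors bind the kinases or their cyclin complexes and stop them. Of 6 measured, CDKN1A rose and 5 did not pass, beside 2.07% of all genes risen. Of the 6 changes 5 were positive, with a median of 0.15. CDKN1A, the p53-responsive inhibitor p21, measured 8.0005, 8.0408 and 7.9261 with CTNNB1 siRNA, against 7.4852, 7.4419 and 7.2673 with control siRNA. The groups did not overlap, and the rise was 0.59 ± 0.10 log2 units (SE), or 1.51-fold (limma, adjusted p = 0.0102, and adjusted p = 0.0532 without CTNNB1 siRNA replicate 1). CDKN2B, the INK4 inhibitor p15 that binds CDK4 and CDK6, was higher by 0.35 ± 0.10 log2 units (SE; limma, adjusted p = 0.0689), short of the threshold, with groups that did not overlap. CDKN2A, the INK4 gene that also encodes ARF and is named here after its values were seen, measured 8.81 ± 0.13 with CTNNB1 siRNA and 8.80 ± 0.23 with control siRNA (SD, n = 3 each).

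None of the 13 measured retinoblastoma family and E2F genes passed the threshold in limma, beside 4.72% of all genes called. An unadjusted p under 0.05 was found for 1 of the 13, beside 20.3% of all genes. The median log2 change of the 13 was -0.07. The gene with an unadjusted p under 0.05 was E2F5, an E2F that acts with the pocket proteins, at -0.37 ± 0.10 (SE; adjusted p = 0.0682). E2F2, an activating E2F, had a log2 change of 0.22 ± 0.11 (adjusted p = 0.280). RB1, the retinoblastoma gene itself and named after its values were seen, gave 2.12, 2.37 and 2.42 with CTNNB1 siRNA, against 2.38, 2.62 and 2.34 with control siRNA. All 6 values, on the 1 row that the annotation gives it, were under the array medians, and a signal above background was not shown. Its relatives, also named after their values were seen, were RBL1, at 8.75 ± 0.12 with CTNNB1 siRNA and 8.89 ± 0.08 with control siRNA, and RBL2, at 6.914 ± 0.020 with CTNNB1 siRNA and 6.998 ± 0.030 with control siRNA (SD, n = 3 each). Both lay above the array medians on every array.

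Genes that switch the kinases on or hold them back by phosphorylation, with the CKS subunits, gave 0 calls of 9 in limma. An unadjusted p under 0.05 was found for 2 of the 9. Over all genes 4.72% were called and 20.3% had an unadjusted p under 0.05. CCNH, the cyclin of the CDK-activating kinase, had a log2 change of -0.39 ± 0.12 (SE; adjusted p = 0.103). WEE1, which adds the inhibitory phosphate that CDC25 enzymes remove, had 0.33 ± 0.14 (adjusted p = 0.217). The median of the list was -0.01.

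Among 15 genes of cyclin turnover 2 fell and 13 did not pass, beside 2.65% of all genes fallen. The median log2 change of the list was -0.09. Both called genes encode cullins, the scaffolds of ubiquitin ligases. CUL1, scaffold of the SCF ligases that degrade cyclin E through FBXW7, measured 8.34, 8.24 and 8.57 with CTNNB1 siRNA, against 8.86, 8.78 and 8.97 with control siRNA. CUL3, whose ligases also take free cyclin E, measured 8.42, 8.47 and 8.61 with CTNNB1 siRNA, against 8.98, 8.91 and 9.07 with control siRNA. Neither pair of groups overlapped. The log2 change was -0.49 ± 0.11 (SE; limma, adjusted p = 0.0378) for CUL1 and -0.49 ± 0.10 (SE; limma, adjusted p = 0.0228) for CUL3. Neither call held throughout when single arrays were left out. CUL1 had an adjusted p of 0.131, 0.0593 and 0.130 without control siRNA replicates 1, 2 and 3, and of 0.134 and 0.113 without CTNNB1 siRNA replicates 1 and 2. CUL3 had 0.0991 and 0.0890 without control siRNA replicates 1 and 3, and 0.0967 and 0.0688 without CTNNB1 siRNA replicates 1 and 2. FBXW7, the subunit that recognises phosphorylated cyclin E and named after its values were seen, had a log2 change of -0.29 ± 0.14 (SE; adjusted p = 0.273).

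Cyclins of G2 and mitosis and CDK1 gave 0 calls of 4 in limma, beside 4.72% of all genes called. None of the 4 had an unadjusted p under 0.05, beside 20.3% of all genes. CCNB2, a B cyclin of mitosis, had a log2 change of -0.19 ± 0.09 (SE; adjusted p = 0.308) and CCNF, cyclin F, which serves as a ubiquitin ligase subunit, -0.03 ± 0.10 (adjusted p = 0.902).

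Of 19 measured S phase genes, many of them E2F targets, none passed the threshold in limma, beside 4.72% of all genes called. An unadjusted p under 0.05 was found for 5 of the 19, beside 20.3% of all genes. The changes were negative for 13 of the 19, with a median of -0.16. TYMS, thymidylate synthase, had a log2 change of -0.41 ± 0.10 (SE; adjusted p = 0.0538) and RRM1, the large subunit of ribonucleotide reductase, -0.39 ± 0.12 (adjusted p = 0.0872). The groups did not overlap for 9 of the 19, beside 26% of all genes, and CTNNB1 siRNA was lower for 8 of them, beside 15.2% of all genes. NPAT, a cyclin E-CDK2 substrate that drives histone gene transcription and is named after its values were seen, had 0.04 ± 0.10 (adjusted p = 0.849).

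Transcription factors known to act on G1 cyclin genes gave 2 rises and 1 fall among 11 measured, beside 2.07% of all genes risen and 2.65% fallen. MYC, which drives growth and cell cycle entry, measured 9.86, 9.68 and 9.75 with CTNNB1 siRNA, against 10.38, 10.35 and 10.40 with control siRNA, and fell by 0.61 ± 0.09 (SE) on the log2 scale (limma, adjusted p = 0.00644). FOS, an AP-1 factor of the immediate response to growth signals, measured 11.33, 11.14 and 11.02 with CTNNB1 siRNA, against 9.77, 10.43 and 10.26 with control siRNA. The control arrays of FOS spread widely, but all lay below the CTNNB1 siRNA arrays. FOS rose by 1.01 ± 0.16 log2 units (SE; limma, adjusted p = 0.00763), with an adjusted p of 0.0563 without CTNNB1 siRNA replicate 1. TCF7L2, a TCF factor through which beta-catenin reaches DNA, measured 8.77, 8.42 and 8.58 with CTNNB1 siRNA, against 8.16, 8.16 and 7.99 with control siRNA, and rose by 0.49 ± 0.11 log2 units (SE; limma, adjusted p = 0.0419). Its call was lost with any 1 array left out except CTNNB1 siRNA replicate 2, with adjusted p of up to 0.146 without CTNNB1 siRNA replicate 1. MYC passed with any 1 array left out.

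**Figure D3:**
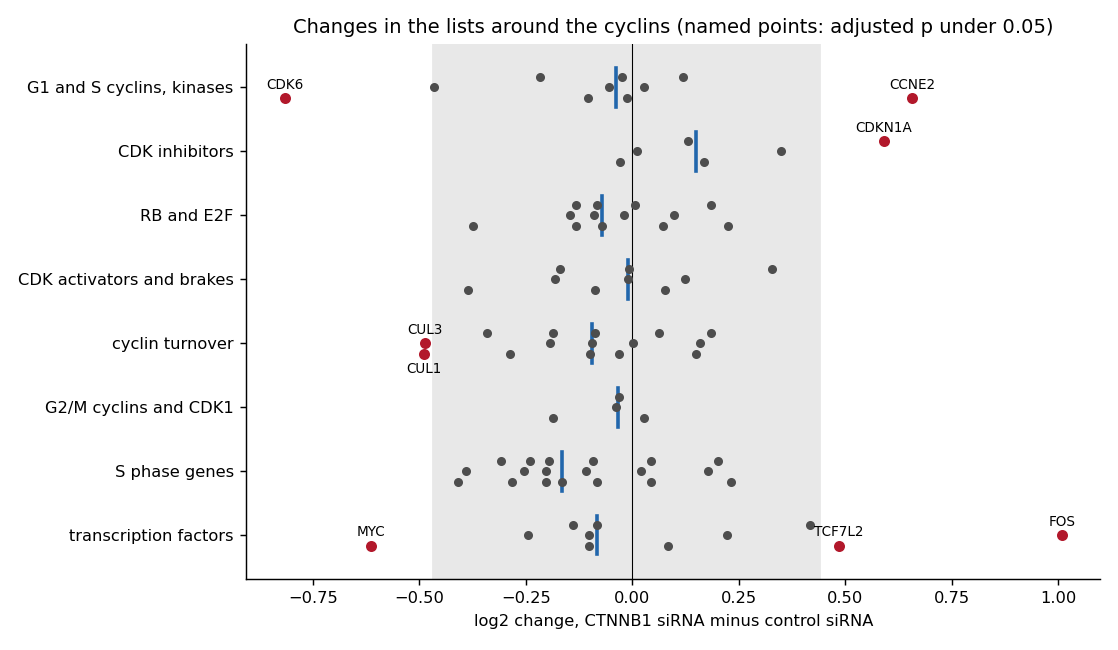
Log2 change (horizontal axis, CTNNB1 siRNA minus control siRNA) of every measured gene in the 10-gene set and the 7 lists around it; red named points have an adjusted p under 0.05, blue bars are list medians, and the grey band holds the middle 95% of all 18417 genes (-0.47 to 0.44). CDK6 and CCNE2 lie outside the band on opposite sides.

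**Figure D4:**
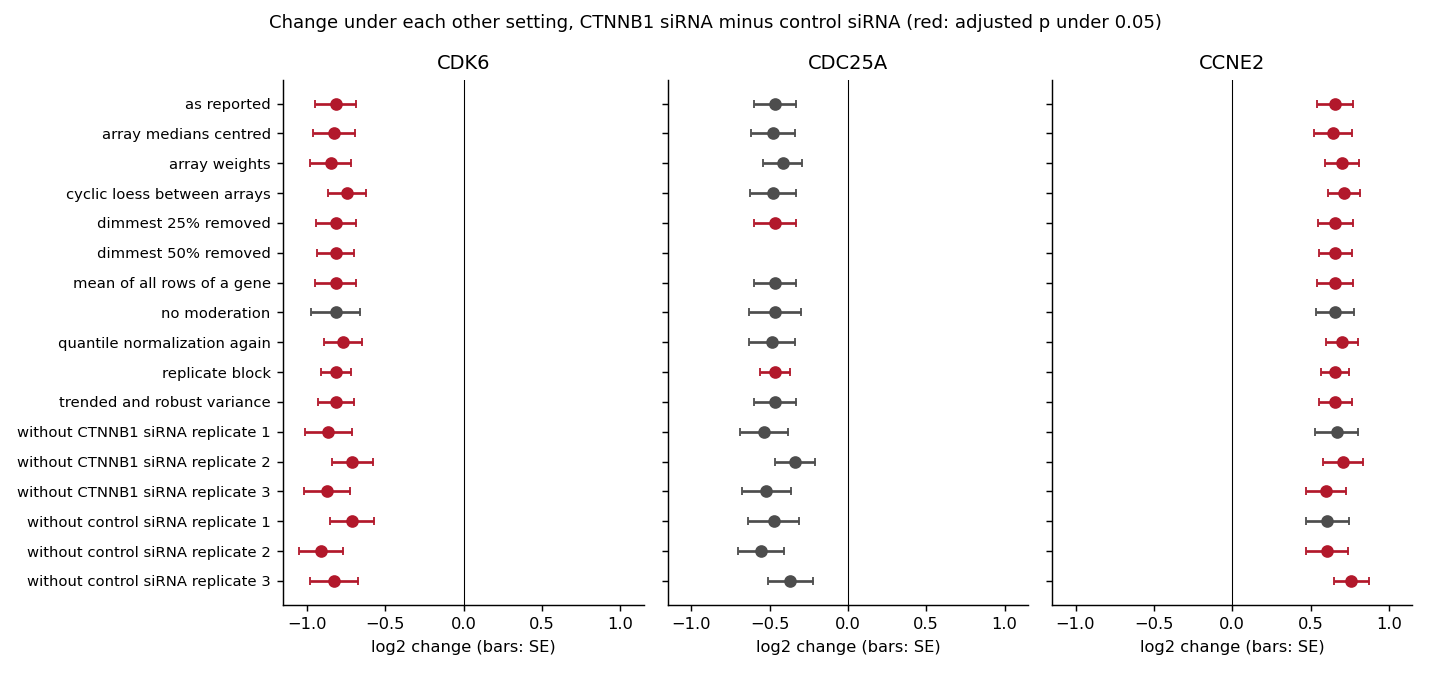
Log2 change ± SE (horizontal axes, CTNNB1 siRNA minus control siRNA) of CDK6, CDC25A and CCNE2 as reported and under each other setting; red marks an adjusted p under 0.05, and CDC25A is missing where the dimmest 50% of genes were removed. CDK6 stays between -0.91 and -0.71 and CCNE2 between 0.60 and 0.76.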

How the data were processed

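RNA of the 6 samples was measured on an Affymetrix Human Gene ST array, from 500 ng of total RNA per sample, per the labels' protocols. The authors deposited log2 signals, which they computed with RMA in Affymetrix Expression Console 1.1, per the submitters' processing notes. RMA corrects background, gives all arrays a common distribution and summarises the probes of a row, so a shift common to most genes cannot be seen. The sources used here do not give the genome build or annotation version. Background calls per probe were not used here, and the number of arrays limits the precision.

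The table held 33297 rows, 19460 with 1 gene symbol, 1754 with several and 12083 not named, and 19429 rows with 1 symbol had a gene ID in the RefSeq table. The brightest row per gene left 18417 genes. The test was limma's moderated fit (version 3.58.1, under R 4.3.3; lmFit, then eBayes), two-sided, with control siRNA subtracted from CTNNB1 siRNA; p was adjusted over all genes (Benjamini-Hochberg), with no further scaling or filter. Confidence intervals are 95%. The fit was tested on simulated data with independent normal noise for each gene and array, and not on noise shared between genes. No replicate pair was identical (SD of the difference over genes 0.203 to 0.262).

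The named genes are CTNNB1, the 10 members, the markers, the called genes of each list (up to 6), filled up to 2 by smallest p where fewer were called, and the 5 genes nearest to CCNE2, with others said to be chosen later. The members and lists were chosen with earlier results of these data known. Other settings were a replicate block, other scalings, filters on dim genes, other variance models, the mean of a gene's rows, a threshold of 0.10 and leaving out each array.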

Additional observations from a re-analysis of the deposited data

How the results depend on the processing

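With any 1 array left out, 1 to 2 of the 10 genes were called, 283 to 877 of all genes and 1 to 5 of the 77 genes in the lists. A per-gene fit without limma's moderation called 111 of all genes, 0 in the lists and 0 of the 10 genes. In that fit an unadjusted p under 0.05 came out for 21 list genes, 4 of the 10 and 3248 of all 18417 genes. In limma's moderated fit these counts were 17, 3 and 3746. In the fit without moderation CTNNB1 at -0.77 did not pass (adjusted p = 0.0660), nor did CDK6 (0.131) or CCNE2 (0.126). At a threshold of 0.10 there were 1668 calls among 18417 genes, and 12 among 77 in the lists. With the dimmest 25% of genes removed, 1483 of 13812 genes were called, and 11 of 74 in the lists. With the dimmest 50% removed, 1861 of 9208 genes were called, and 15 of 68 in the lists. A trended and robust variance gave 1622 calls among 18417 genes, and 12 among 77 in the lists. Whether the replicate numbers pair the samples was not tested, and the fit as reported leaves them out. Same-numbered arrays had correlations of -0.0188, 0.329 and 0.223 between their deviations from group means. Between differently numbered arrays of the groups these correlations ran from -0.293 to 0.0777. The replicate block gave 3 calls among the 10 genes, with CDC25A added (limma, adjusted p = 0.0333), and 10 in the lists. Over all genes it gave 1177 calls, against 870 without the block. The signs of genes near 0 turned: under cyclic loess and under quantile normalization run again CCND1 measured 0.064 and 0.033, CCNA2 0.046 and 0.019, and CCND2 -0.019 and -0.030. With single arrays left out they ranged from -0.089 to 0.028 for CCND1, -0.088 to 0.021 for CCNA2, -0.020 to 0.071 for CCND2 and -0.14 to 0.020 for CCNE1. CCNE2 minus CCNE1 lay between 0.65 and 0.74. Causes were not tested. CCND2 and RB1 lay below the array medians throughout, which limits what their small changes can show.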
